A study of Mus musculus with 2 samples.

Results

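The 6 genes described here are Trem2, its membrane adaptors Tyrobp and Hcst, and Syk, Plcg2 and Inpp5d, which act on the signal inside the cell. They were chosen by name as rows of the count table, 6 of 32285 genes, with earlier results of these data known. Their RNA was followed across cell states and between the 2 libraries of a single-cell RNA sequencing experiment on sorted mouse microglia.

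Trem2 is a surface receptor of microglia, the resident macrophages of the brain, that binds lipids, lipoproteins and amyloid-beta. It has no signalling tail of its own and works through Tyrobp (DAP12), whose phosphorylated cytoplasmic motif recruits the tyrosine kinase Syk, while Hcst (DAP10) couples the same receptor to phosphoinositide 3-kinase. Plcg2 is a phospholipase downstream of Syk, and Inpp5d (SHIP1) is a lipid phosphatase that restrains the phosphoinositide 3-kinase branch. In mice, microglia that lack Trem2 do not complete the passage from the homeostatic state to the disease-associated microglia (DAM) found around amyloid plaques.

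All animals were PSAPP mice, which carry the APPswe and PS1δE9 transgenes, so both groups share this genotype and no animal without the transgenes was measured. VEH mice were gavaged daily with vehicle, and LEM mice with lemborexant, an antagonist of both orexin receptors, at 30 mg/kg/day, for 30 days from 9 months of age. At 10 months, live CD45lo CD11b+ cells were sorted from cortex and hippocampus of 1 hemisphere, and the cells of 5 mice were pooled into 1 library per treatment. The VEH library holds 18374 cells with 116229678 counts of unique RNA molecules (median 5971 per cell), and the LEM library 24392 cells with 160752298 counts (median 6034). Sex was read per cell from Xist and 4 Y-linked genes. This gave a pool of 5686 female and one of 9025 male cells in VEH, and pools of 8409 and 11223 in LEM. Cells with counts of neither kind, or of both, are in no sex pool, so results by sex leave them out. With 1 library per treatment, LEM cannot be tested against VEH. A comparison of states within the libraries rests on 2 pools of mice, which also differ in treatment. The main fit removes the mean difference between the libraries. Its p-values therefore draw on how far the differences between states vary between the 2 libraries, over all states fitted together. That leaves 5 residual degrees of freedom per gene. The fit also draws the spread of each gene toward the trend over all genes tested, so the p-values do not rest on that gene alone. They do not measure the spread between mice.

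Cells were placed in states by their raw counts of marker genes, none of which is among the 6 genes, and 561 VEH and 726 LEM cells were left ungated. Homeostatic-like cells had counts of all 3 homeostatic markers (P2ry12, Cx3cr1 and Tmem119) and of no DAM marker (14156 VEH and 17629 LEM cells). Intermediate cells had 1 or 2 DAM markers (2627 and 4422 cells), and DAM-like cells had at least 3 (481 and 620 cells). The sex pools of DAM-like cells held 156 female and 225 male cells in VEH and 216 and 256 in LEM. Of the 7 DAM markers listed, 6 were used (Cst7, Lpl, Itgax, Spp1, Gpnmb and Igf1), and 1 was not analysed here. Interferon-like (331 and 568), mitotic-like (152 and 220) and border-associated macrophage (BAM)-like cells (25 and 68) were set apart first. Of all cells, 618 carried exactly 3 DAM markers and 1186 exactly 2, so many cells lie near that boundary. DAM-like cells were the deeper cells, with median totals of 11135 (VEH) and 11492 (LEM) counts against 5792.5 and 5820 in homeostatic-like cells. Levels of the gate markers describe the gates and do not test their names: Cst7, a cysteine protease inhibitor of DAM, was at 1590.0 CPM (counts per 1000000 counts of the same cells) in VEH and 1292 CPM in LEM DAM-like cells, and P2ry12, the purine receptor of homeostatic microglia, at 2283 and 2378 CPM against 4597 and 4436 CPM in homeostatic-like cells. Of 7 lists of markers of other cells, the oligodendrocyte list had the highest sum in DAM-like cells, at 14.6 (VEH) and 19.0 CPM (LEM) against 28.8 and 31.6 CPM in homeostatic-like cells. Only 2 of its 3 markers had counts in DAM-like cells, and 1 in intermediate cells, where the sum was 29.2 and 29.1 CPM. Astrocyte markers were at 4.87 and 7.08 CPM in DAM-like against 1.69 and 1.92 CPM in homeostatic-like cells, with all 3 markers counted. The endothelial (3.94 and 3.47 CPM), monocyte (3.94 and 5.28 CPM) and neuron lists (0.187 and 0.278 CPM) were lower in DAM-like than in homeostatic-like cells. T cell and neutrophil markers came to at most 0.139 CPM. Ttr, of the choroid plexus, was at 41.8 and 12.5 CPM in DAM-like cells and at 12.2 and 19.8 CPM in homeostatic-like cells. The part of RNA from other cells in the results was not tested.

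The upstream sequences of 3 genes are shown to set the start regions of 2 genes that were higher in DAM-like cells beside that of 1 that was lower. Each is the 250 bases before the RefSeq start on GRCm38.p6, written 5′ to 3′ on the strand of the gene, and none overlaps an annotated exon. Capitals mark GAGGAA or its reverse complement TTCCTC, a core that the myeloid factor PU.1 can bind. The Trem2 window is chr17:48346151-48346400 (plus strand), the Hcst window chr7:30419855-30420104 (minus strand) and the Inpp5d window chr1:87620062-87620311 (plus strand).
Trem2: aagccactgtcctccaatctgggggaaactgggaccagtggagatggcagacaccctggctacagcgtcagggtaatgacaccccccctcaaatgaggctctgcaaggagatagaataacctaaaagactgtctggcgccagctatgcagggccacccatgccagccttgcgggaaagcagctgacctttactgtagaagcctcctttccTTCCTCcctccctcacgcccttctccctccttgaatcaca
Hcst: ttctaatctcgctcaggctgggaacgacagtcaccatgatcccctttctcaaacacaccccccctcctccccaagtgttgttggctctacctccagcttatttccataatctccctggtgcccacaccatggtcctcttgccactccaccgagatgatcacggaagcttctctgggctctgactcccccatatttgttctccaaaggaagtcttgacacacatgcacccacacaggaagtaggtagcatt
Inpp5d: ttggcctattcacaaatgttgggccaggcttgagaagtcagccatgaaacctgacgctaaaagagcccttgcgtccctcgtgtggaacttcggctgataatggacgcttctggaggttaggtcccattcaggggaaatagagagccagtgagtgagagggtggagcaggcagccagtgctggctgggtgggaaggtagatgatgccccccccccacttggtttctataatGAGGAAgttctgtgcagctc
Both strands were searched, and these letters occurred once each in the Trem2 and Inpp5d windows and in 23.3% of the 32851 promoters of that table. The AP-1 motif TGACTCA or TGAGTCA (4.46% of promoters) was in none of the 3 windows, nor was the E-box CACGTG (6.02%), which occurred once in the window of Plcg2. A match is a description of letters, and binding was not measured.

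The gene positions on GRCm38 differ in scale. Trem2 lies on chr17:48346401-48354147 and spans 7.75 kb. Tyrobp (chr7:30413760-30417585, 3.83 kb, plus strand) and Hcst (chr7:30417712-30419854, 2.14 kb, minus strand) are convergent neighbours whose ends are 126 bases apart. Syk (chr13:52583173-52648792, 65.6 kb), Plcg2 (chr8:117498291-117635142, 137 kb) and Inpp5d (chr1:87620312-87720507, 100.2 kb) are long genes, and Plcg2 overlaps Gm27361 on the other strand.

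The receptor and both adaptors were higher in DAM-like than in homeostatic-like cells, and the kinase, the phospholipase and the phosphatase were lower per total counts, in both libraries and in both sexes. In edgeR's quasi-likelihood test on counts summed by state and library, 3 of the 6 genes passed as higher and 3 as lower at an adjusted p under 0.05. Over all 12747 genes tested, 23.7% passed as higher and 23.6% as lower, so a call by itself does not set a gene apart in this comparison.

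**Figure D1:**
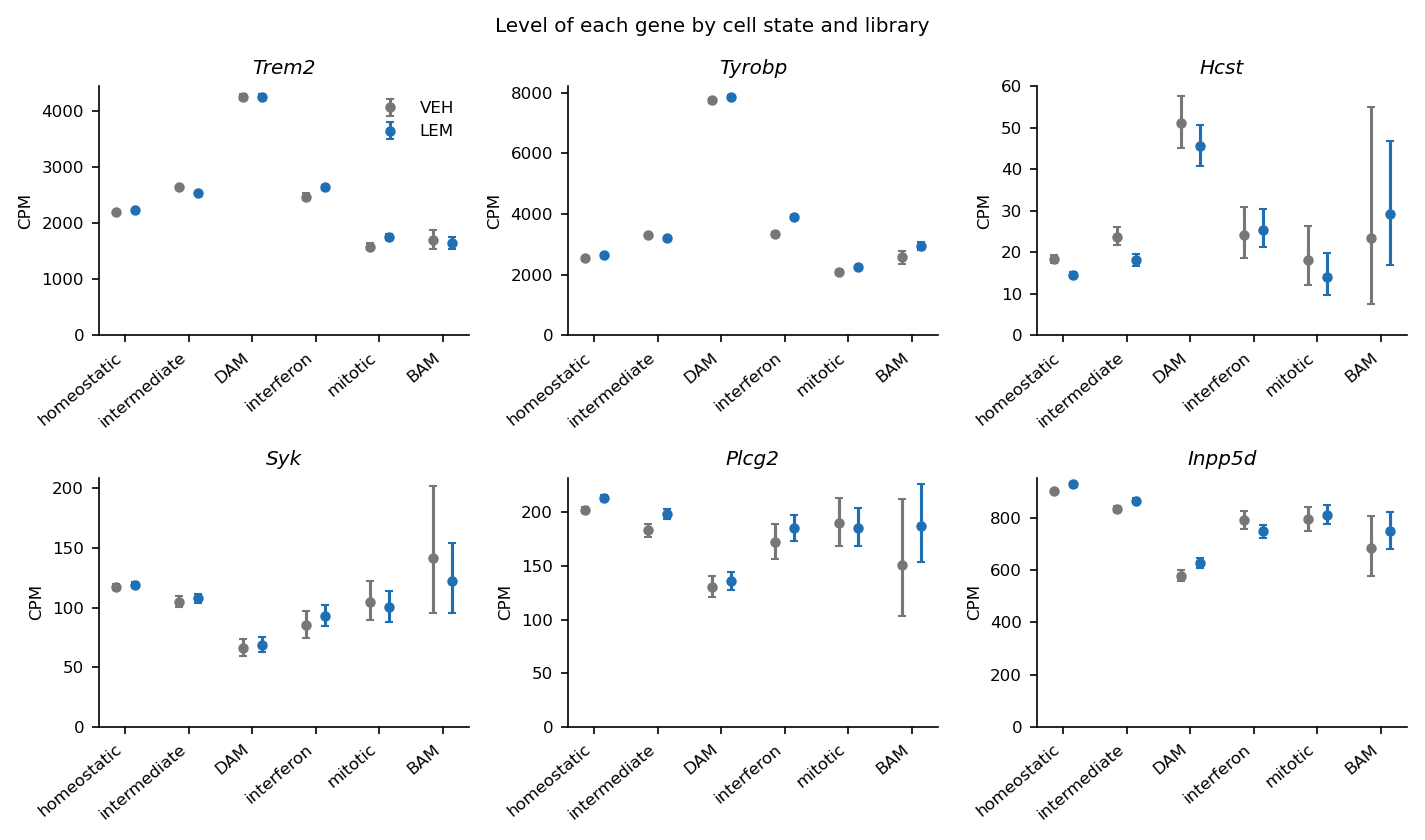
CPM of each gene (y axis, linear, from 0) in 6 cell states (x axis) in the VEH and LEM libraries, with 95% counting intervals. Trem2, Tyrobp and Hcst are highest in DAM-like cells, where Syk, Plcg2 and Inpp5d are lowest, and the 2 libraries sit close together in most states.

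Trem2 was at 2202 CPM in homeostatic-like and 4249 CPM in DAM-like cells of the VEH library, and at 2230 and 4253 CPM in those of the LEM library. The 2 DAM-like values differ by far less than either differs from its homeostatic-like value. The 4 pools of library and sex gave 4217 to 4312 CPM in DAM-like and 2131 to 2259 CPM in homeostatic-like cells, without overlap. The edgeR log2 fold change was 1.19 ± 0.05 (SE, 2 libraries, adjusted p = 4.42e-17). The median per cell was 12 counts in homeostatic-like cells of both libraries and 44 (VEH) and 45 (LEM) in DAM-like cells, and 100% of DAM-like cells had at least 1 Trem2 count. Of choroid plexus-like cells, set apart by markers such as Ttr, 78.0% (VEH) and 69.1% (LEM) had a Trem2 count, at 1426 and 1391 CPM. Their medians were 14 and 10 Trem2 counts per cell, and they held P2ry12, RNA of microglia, at 2411 and 2016 CPM. They cannot give a background level, and whether a single count marks a cell as expressing Trem2 was not tested.

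Tyrobp went from 2546 to 7739 CPM in VEH and from 2639 to 7855 CPM in LEM. All 4 pools of DAM-like cells, at 7602 to 8167 CPM, stood above the 2490 to 2784 CPM of the homeostatic-like pools. In edgeR, the log2 fold change was 1.84 ± 0.06 (adjusted p = 5.71e-20). The receptor and its adaptor did not keep a fixed ratio: there were 86.5 (VEH) and 84.5 (LEM) Trem2 counts per 100 Tyrobp counts in homeostatic-like cells, 79.6 and 78.9 in intermediate cells, and 54.9 and 54.1 in DAM-like cells. The counting intervals of the homeostatic-like and DAM-like ratios do not overlap in either library (in VEH, 86.0 to 87.0 against 54.0 to 55.8).

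Hcst, the second adaptor, was sparse. It was at 18.4 (VEH) and 14.5 CPM (LEM) in homeostatic-like cells and at 51.2 and 45.5 CPM in DAM-like cells. The DAM-like pools, at 48.3 to 57.3 CPM, lay above the homeostatic-like pools, at 12.5 to 20.7 CPM. The edgeR log2 fold change was 1.82 ± 0.09 (adjusted p = 3.26e-16). Against Tyrobp, its counts stayed nearly level: 0.723 Hcst counts per 100 Tyrobp counts in homeostatic-like and 0.661 in DAM-like cells of VEH, and 0.548 and 0.58 in LEM, with overlapping intervals within each library.

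The share of cells with an Hcst count was 9.38% (VEH) and 7.90% (LEM) in homeostatic-like and 36.8% and 32.1% in DAM-like cells. After thinning every cell to 2000 counts, it was 3.21% and 2.68% against 9.13% and 7.48%. Choroid plexus-like cells, few in number, gave 0 of 40 thinned cells in VEH (exact 95% upper limit 8.81%) and 3.79% in LEM (1.24% to 8.62%). The thinned shares thus do not separate the states from background at this depth. Unthinned, at median totals of 9522 and 8265 counts, 2.44% (0.0617% to 12.9%) and 11.5% (6.72% to 18.0%) of choroid plexus-like cells had an Hcst count, below the DAM-like shares (32.5% to 41.3% and 28.4% to 35.9%). In CPM, choroid plexus-like cells were at 2.49 (0.0629 to 13.8) in VEH and 16.1 (9.81 to 24.8) in LEM, below DAM-like cells in both libraries (45.3 to 57.6 and 40.7 to 50.7). The homeostatic-like level lay above that interval in VEH and inside it in LEM, where it cannot be told from background. That comparison is itself limited, because choroid plexus-like cells also held P2ry12 at 2411 (VEH) and 2016 CPM (LEM), RNA of microglia.

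Syk was lower in DAM-like cells, at 66.2 against 117 CPM in VEH and 69.0 against 119 CPM in LEM. The DAM-like pools ranged from 59.6 to 72.4 CPM and the homeostatic-like pools from 115 to 121 CPM. In edgeR, the log2 fold change was -0.55 ± 0.05 (adjusted p = 3.59e-10).

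Plcg2 was at 130.3 against 202 CPM in VEH and at 136 against 213 CPM in LEM. Its female and male pools were further apart than those of Inpp5d, with a log2 CPM ratio of -0.45 in female and -0.81 in male VEH cells, and all 4 pools were lower. The edgeR log2 fold change was -0.39 ± 0.06 (adjusted p = 1.24e-06).

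Inpp5d was at 578 against 900.4 CPM in VEH and at 625 against 928 CPM in LEM. The DAM-like pools, at 568 to 650 CPM, lay below the homeostatic-like pools, at 887 to 944 CPM. In edgeR, the log2 fold change was -0.35 ± 0.05 (adjusted p = 1.35e-06).

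In DAM-like cells, Syk and Plcg2 were close to their choroid plexus-like levels, and Inpp5d was close to its level there in VEH alone. Choroid plexus-like cells of VEH and LEM held Syk at 87.0 (60.6 to 121) and 65.0 CPM (51.7 to 80.8), and Plcg2 at 132 (98.7 to 172) and 109 CPM (91.6 to 129). These intervals hold or overlap those of DAM-like cells (59.4 to 73.4 and 63.1 to 75.3 CPM for Syk, 121 to 140.3 and 127 to 145 CPM for Plcg2). For Inpp5d, choroid plexus-like cells were at 557 (486 to 635) and 422 CPM (386 to 459), so that DAM-like cells stood above them in LEM alone. Choroid plexus-like cells also held P2ry12, RNA of microglia, at 2411 (VEH) and 2016 CPM (LEM), against 2283 and 2378 CPM in DAM-like cells. The comparison therefore cannot tell whether the 3 genes stand above background in DAM-like cells.

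**Figure D2:**
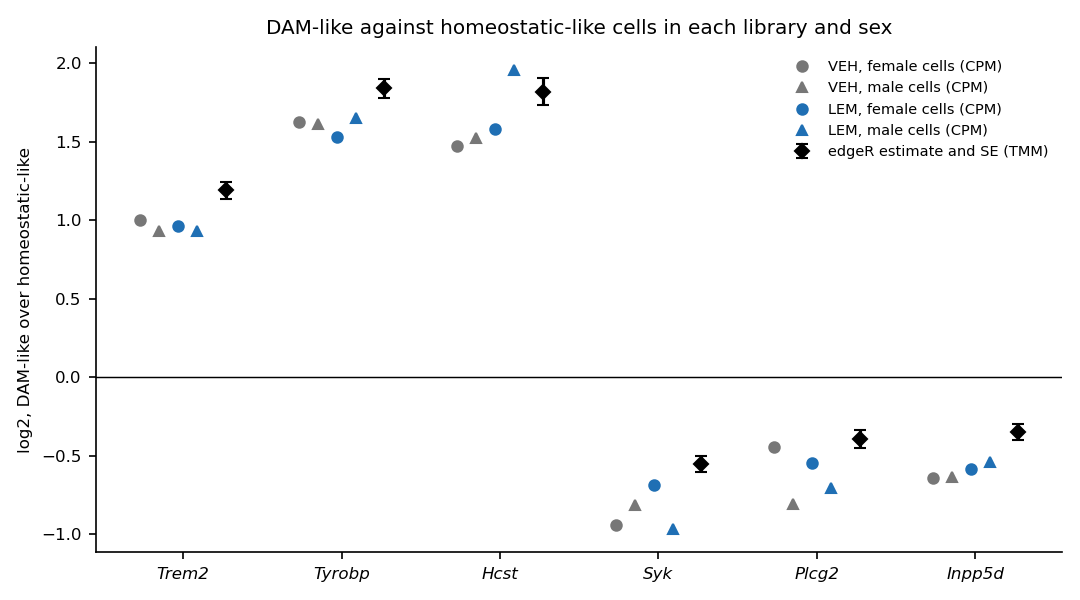
Log2 ratio of DAM-like over homeostatic-like cells (y axis) for each gene (x axis) in the 4 pools of library and sex on the CPM scale, with the edgeR estimate and its SE beside them. Every pool lies above 0 for Trem2, Tyrobp and Hcst and below 0 for Syk, Plcg2 and Inpp5d.

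The scale matters for the last 3 genes. DAM-like cells held more counts in all, on average 11091 (VEH) and 11618 (LEM) against 6008 and 6182, and scaling by trimmed mean of M-values (TMM) raised every DAM-like log2 ratio by 0.25 over plain CPM in both libraries. Mean Inpp5d counts per cell were 6.41 in DAM-like and 5.41 in homeostatic-like cells of VEH, and 7.26 and 5.74 in LEM, so the direction per cell is the opposite of that per total counts. Plcg2 (1.44 against 1.21 counts per cell in VEH) and Syk (0.734 against 0.704) also turned to slightly higher per cell. Trem2 (47.1 against 13.2 counts per cell in VEH) and Tyrobp (85.8 against 15.3) differed by more per cell than in CPM.

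When only cells of 8000 to 14000 counts were compared, a range chosen after the depths were seen, 240 VEH and 281 LEM DAM-like cells had fewer counts per cell of all 3 genes than homeostatic-like cells of that range. Inpp5d was then at 5.95 against 8.74 counts per cell in VEH and 6.70 against 9.19 in LEM, and Syk at 0.713 against 1.10 and 0.698 against 1.14. The edgeR log2 fold changes of that range were 1.17 for Trem2, 1.76 for Tyrobp, 1.73 for Hcst, -0.58 for Syk, -0.41 for Plcg2 and -0.42 for Inpp5d, and each passed the threshold. Because a gate on marker counts favours deep cells, more RNA per cell and deeper capture cannot be told apart.

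**Figure D3:**
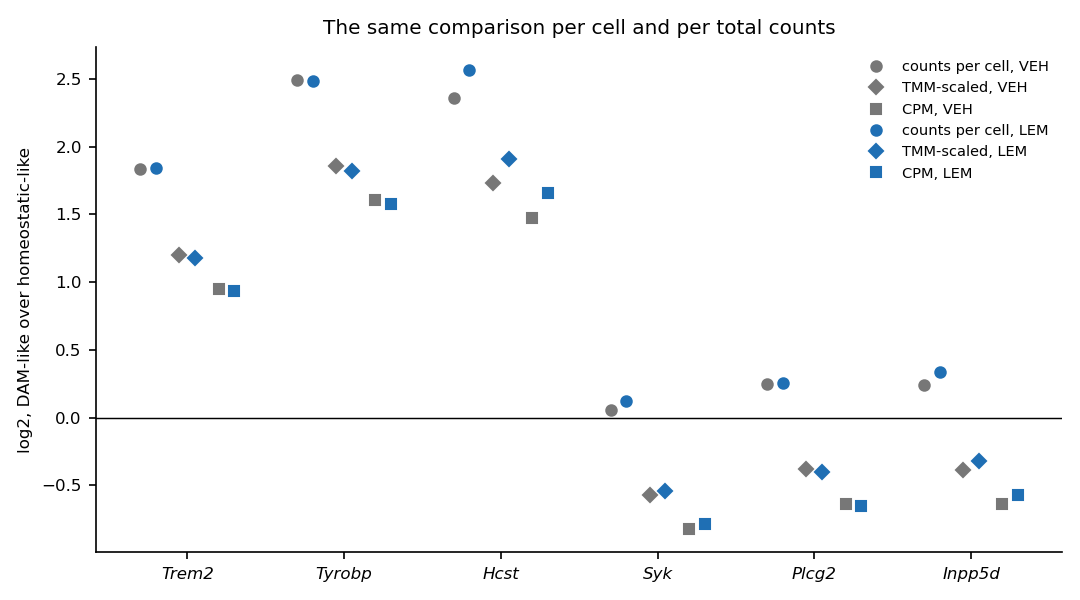
Log2 ratio of DAM-like over homeostatic-like cells (y axis) for each gene (x axis) as mean counts per cell, after TMM scaling and as CPM, in each library. Trem2, Tyrobp and Hcst are above 0 on all 3 scales, while Syk, Plcg2 and Inpp5d are above 0 per cell and below 0 on the other scales.

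Levels by the number of DAM markers counted in a cell are a description with no test. From 0 to 1, 2, 3, 4 and 5 or 6 markers, Trem2 in VEH was at 2202, 2511, 3238, 3955, 4411 and 4799 CPM. Tyrobp went from 2546 to 10065 CPM in VEH and from 2639 to 9367 CPM in LEM over the same classes. Inpp5d in VEH was at 900.4, 849.9, 750.4, 635, 536 and 503 CPM. The steps of Trem2 and Inpp5d in VEH each went one way, whereas Syk and Plcg2 in VEH were lowest at 4 markers (58.3 and 116 CPM) and higher in the 57 cells with 5 or 6 (72.2 and 143 CPM), with overlapping counting intervals for both genes. Hcst went from 18.4 to 63.7 CPM in VEH, but in LEM it was at 51.8 CPM with 4 markers and 50.5 CPM with 5 or 6, and among cells of 8000 to 14000 counts at 66.0 and 31.5 CPM.

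**Figure D4:**
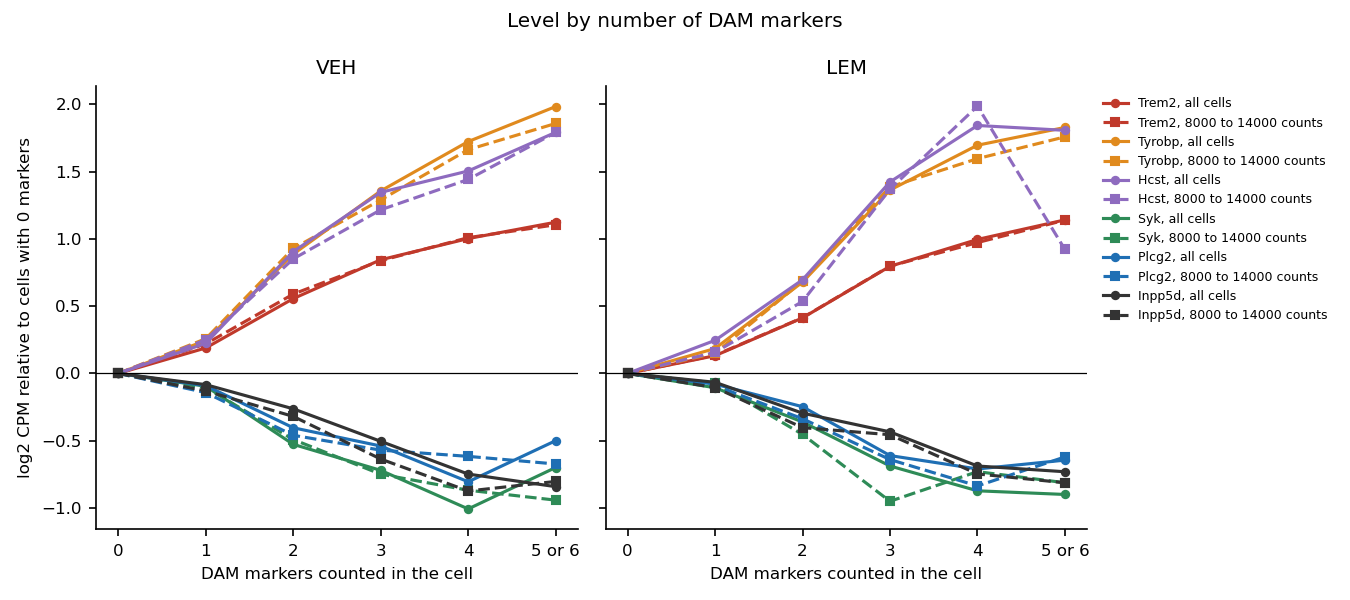
Log2 CPM relative to cells with 0 DAM markers (y axis) by the number of DAM markers counted (x axis) for the 6 genes in VEH and LEM, for all homeostatic-like, intermediate and DAM-like cells (solid) and those of 8000 to 14000 counts (dashed). The 3 receptor and adaptor genes lie above 0 and the 3 others below 0 at 3 or more markers in both libraries, and the last dashed Hcst point in LEM, which falls back, rests on 12 counts.

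Intermediate cells showed the same directions at a smaller size. They were also deeper, at median totals of 7070 (VEH) and 6933 counts (LEM) against 5792.5 and 5820 in homeostatic-like cells. Levels moved with depth among homeostatic-like VEH cells of 4000 to 5999, 6000 to 7999 and 8000 to 13999 counts. Tyrobp was there at 2378, 2681 and 2693 CPM, Syk at 124, 110 and 113 CPM and Inpp5d at 920.5, 829 and 898 CPM. The part of depth in the levels of intermediate cells was not tested. The edgeR log2 fold changes over homeostatic-like cells were 0.25 for Trem2 (2641 and 2534 CPM in VEH and LEM), 0.36 for Tyrobp, 0.38 for Hcst and -0.13 for Syk, and these 4 genes passed the threshold, where 7.72% of all genes passed as higher and 4.88% as lower. Plcg2 and Inpp5d did not pass, at -0.10 and -0.08. Without the library term, none of these 4 calls held, and the log2 fold changes stayed at 0.25, 0.36, 0.37 and -0.13. With DAM-like cells taken from 2 markers on, Trem2 (0.19) and Syk (-0.08) missed the threshold. Syk also missed it in DESeq2's Wald test (-0.12), with sums by library and sex (-0.13) and among cells of 8000 to 14000 counts (-0.12). Calls were gained for Plcg2 with gates on thinned counts (-0.16), and for Plcg2 (-0.09) and Inpp5d (-0.07) with only these states in the fit.

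Interferon-like cells, which carry at least 4 of 8 interferon-response genes, had Tyrobp at 3330 (VEH) and 3899 CPM (LEM), Hcst at 24.3 and 25.5 CPM and Trem2 at 2467 and 2638 CPM. All 3 rose against homeostatic-like cells, by edgeR log2 fold changes of 0.55, 0.72 and 0.27, while Syk fell by 0.33 and Inpp5d by 0.19. For Hcst, the log2 CPM ratio was 0.40 in VEH, 0.82 in LEM and 0.05 in the VEH male pool. The VEH value rests on 64 counts, and its interval (18.7 to 31.0 CPM) overlaps the homeostatic-like one (17.5 to 19.3 CPM). The interferon gate comes before the DAM gate, and its cells held Cst7 at 310 (VEH) and 227 CPM (LEM), against 169 and 107 CPM in intermediate cells. The monocyte list was at 37.2 and 35.6 CPM, against 7.07 and 7.88 CPM in homeostatic-like cells. The part of cells with DAM markers and of monocyte RNA in these values was not tested. Over all genes, 11.1% passed as higher and 8.77% as lower. Plcg2, at -0.15, did not pass (adjusted p = 0.083, edgeR). With gates set on thinned counts, Trem2, Tyrobp, Hcst and Inpp5d missed the threshold here, at 0.15, 0.30, 0.31 and -0.26. Inpp5d also missed it without the library term (-0.19), and Syk among cells of 8000 to 14000 counts (-0.16).

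In mitotic-like cells 5 of the 6 genes were lower, against 27.9% of genes that passed as higher and 23.5% as lower. Trem2 was at 1581 (VEH) and 1751 CPM (LEM), with an edgeR log2 fold change of -0.46, and Tyrobp at -0.32, Syk at -0.26, Inpp5d at -0.24 and Plcg2 at -0.21 followed. Hcst, at -0.08, did not pass. In CPM, the VEH female pool was not lower for Syk (log2 ratio 0.04) or Plcg2 (0.01), while all other pools were lower for these genes. The monocyte list was at 52.7 (VEH) and 70.6 CPM (LEM) in mitotic-like cells, against 7.07 and 7.88 CPM in homeostatic-like cells. The part of monocyte RNA in these values was not tested. Plcg2 missed the threshold with gates on thinned counts (-0.15) and without the library term (-0.20), and Syk among cells of 8000 to 14000 counts (-0.21).

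BAM-like cells had lower Trem2 (1701 and 1642 CPM, log2 fold change -0.38 in edgeR) and Inpp5d (-0.30), where 7.27% of genes passed as higher and 4.38% as lower. Those cells, marked by Mrc1 at 641 and 679.9 CPM, also held P2ry12 at 2446 and 2033 CPM, and the part of microglial RNA in their Trem2 level was not tested. Inpp5d missed the threshold there among cells of 8000 to 14000 counts (-0.17), while calls were gained for Hcst in DESeq2's Wald test (0.91) and for Plcg2 with sums by library and sex (-0.50).

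The order of the states was the same at its top or bottom in both libraries and loose in between. Among the 6 states in the fit, DAM-like cells were first for Trem2, Tyrobp and Hcst and last for Syk, Plcg2 and Inpp5d. For Trem2 the intermediate and interferon-like states exchanged places between the libraries, as did BAM-like and mitotic-like. For Syk, BAM-like cells came first (141 and 122 CPM), yet their counting intervals held the homeostatic-like values.

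Gene length and nuclear RNA also moved with the states. Among genes with a count in 10% or more of the cells, 47.5% of 1692 genes under 10 kb passed as higher in DAM-like cells and 19.2% as lower, while of 2192 genes of 50 kb or more 16.3% passed as higher and 46.5% as lower. Trem2, Tyrobp and Hcst fall in the first class and Syk, Plcg2 and Inpp5d in the second. Malat1, a nuclear RNA, was at 8838 (VEH) and 8595 CPM (LEM) in homeostatic-like and 4542 and 4089.7 CPM in DAM-like cells. The part of gene length and of nuclear RNA in the results was not tested. Cells left ungated, at a median of 1993 (VEH) and 1799 counts (LEM), went the other way: Malat1 was at 15286 and 13830 CPM, Inpp5d at 2036 and 1794 CPM and Plcg2 at 452 and 436 CPM, their highest levels, and Trem2 was at 1015 and 1408 CPM.

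Other genes of the pathway were taken from a list of 73, of which 67 could be tested in DAM-like against homeostatic-like cells. By edgeR, 19 passed as higher and 30 as lower, and the median log2 fold change of -0.17 compares with -0.05 over all genes tested, of which 23.7% passed as higher and 23.6% as lower. The list was chosen with earlier results of these data known. Of 7 phosphoinositide 3-kinase genes, 1 was higher and 6 were lower. A list of Plcg1, a phospholipase parallel to Plcg2, with Dgkz and genes of calcium release, protein kinase C and the Card9 complex gave 1 higher and 7 lower of 10, Plcg1 among the lower. Of 8 Src-family and Tec-family kinases with their regulator Csk, 3 were higher and 5 lower.

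Among ligands and sheddases, 3 of 6 were higher and 1 lower. Apoe, a lipoprotein that Trem2 binds, was at 951 and 1599.9 CPM in homeostatic-like cells of VEH and LEM and at 6654 and 6875 CPM in DAM-like cells, a log2 fold change of 2.71 ± 0.13 (edgeR, adjusted p = 1.17e-16). Of 5 tested receptors that signal through Tyrobp, 1 passed, Siglech at 0.19, named after its value was seen. In CPM, Siglech was lower in DAM-like than in homeostatic-like cells, at 1059 against 1113 in VEH and 1155 against 1191 in LEM. Receptors that use Hcst or that inhibit gave 3 higher and 3 lower of 8, among them Siglece, a sialic acid receptor with inhibitory motifs, at -1.97 ± 0.09. The adaptors split likewise, with Lat2 (LAB), a scaffold for Syk substrates, at 1.23 ± 0.04 and Dok3, an inhibitory adaptor, at -1.96 ± 0.10. Dgkz, which removes the diacylglycerol that Plcg2 makes, was higher at 1.23 ± 0.05. These 4 genes, from Siglece to Dgkz, each had an edgeR adjusted p of 4.11e-16 or less.

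Over the 12 sums of state and library, Trem2 followed Tyrobp (Pearson r = 0.94) and ran against Syk (r = -0.84), and Plcg2 followed Inpp5d (r = 0.95). These are descriptions over 12 points that share 2 libraries and 6 gates. The genes most like Trem2 in these sums, with the same minimum of detection, were Ctsd, Gm2a and Creg1 (r = 0.99, 0.98 and 0.98). The closest to Tyrobp were Tomm6, Nme2 and Sdf2l1 (0.98 each), and to Hcst Cox17, Rpl13a and Wdr83os (0.95, 0.95 and 0.94). Syk was closest to Eloa, Itga6 and Ctnnd2 (0.98, 0.98 and 0.97), Plcg2 to Tgfbrap1, Chd9 and Grap (0.96 each), and Inpp5d to Ceacam1, Srgap2 and Letmd1 (0.97 each).

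Between LEM and VEH over whole libraries, 5 of the 6 genes were within 0.1 on the log2 scale and Hcst was lower. Trem2 was at 2351 CPM in VEH and 2374 CPM in LEM, a log2 ratio of 0.01 (95% counting interval 0.01 to 0.02). Tyrobp was at 2909 and 3014 CPM (0.05), Syk at 112 and 114 CPM (0.02), Plcg2 at 197 and 207 CPM (0.07) and Inpp5d at 881 and 898 CPM (0.03). These intervals cover counting error alone and not the difference between pools of mice. Of the 7526 genes that reached 10% of cells in one library or the other, 14.1% were above 0.1 and 9.86% below -0.1.

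Hcst was at 20.8 CPM in VEH and 17.0 CPM in LEM, from 2422 and 2738 counts, a log2 ratio of -0.29 (interval -0.37 to -0.21). It was lower in female cells (23.2 and 19.4 CPM, -0.26) and in male cells (19.0 and 14.9 CPM, -0.36). The difference was present in homeostatic-like cells at -0.35 (-0.45 to -0.25) and in intermediate cells at -0.39 (-0.56 to -0.21). Among intermediate cells it was -0.59 (-0.86 to -0.32) in male cells. In female intermediate cells, at -0.09 (-0.39 to 0.21), the interval holds 0. The LEM levels of the whole library, homeostatic-like and intermediate cells were 17.0, 14.5 and 18.2 CPM. These lie inside the choroid plexus-like LEM interval (9.81 to 24.8 CPM) and cannot be told from background. Intermediate cells also differed in DAM markers between the libraries, with Cst7 at 169 (VEH) and 107 CPM (LEM) and Itgax at 78.4 and 98.0 CPM. Interferon-like (0.07, -0.37 to 0.53) and BAM-like cells (0.31, -1.19 to 2.11) went the other way with intervals that hold 0, and choroid plexus-like cells, from 1 count in VEH and 20 in LEM, were at 2.69 (0.05 to 8.07). In homeostatic-like cells, 15.5% of genes were above 0.1 and 10.3% below -0.1. In DAM-like cells the ratio was -0.17, with an interval from -0.40 to 0.07, and no difference was detectable at that depth; there 30.2% of genes were above 0.1 and 22.4% below -0.1. Per 100 Tyrobp counts, Hcst was at 0.716 in VEH and 0.565 in LEM over all cells. Hcst also differed by sex, with a female over male log2 ratio of 0.29 in VEH cells and of 0.38 in LEM cells, and female cells made up 38.7% of the sexed cells in VEH and 42.8% in LEM.

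**Figure D5:**
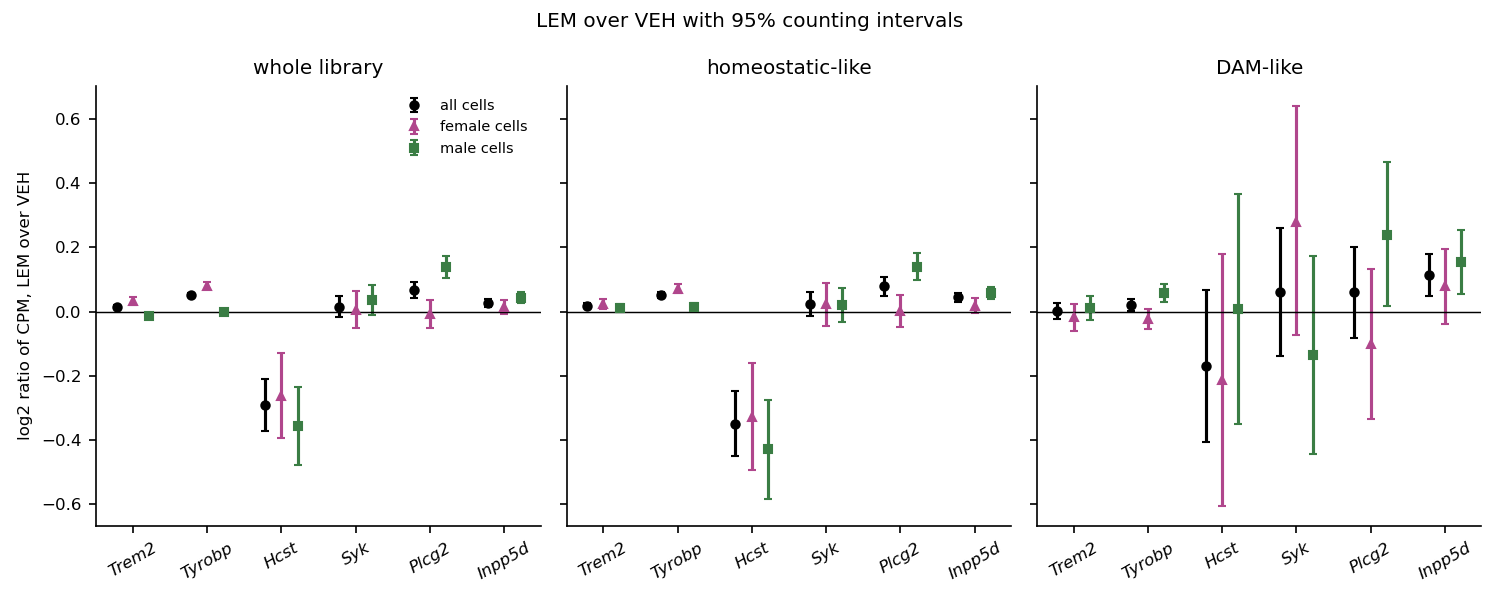
Log2 ratio of CPM in LEM over VEH (y axis) for each gene (x axis) over whole libraries, homeostatic-like and DAM-like cells, for all cells and for female and male cells, with 95% counting intervals. Hcst lies below 0 in the first 2 panels in both sexes, and the intervals are wide in DAM-like cells.

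The sexes were apart for Plcg2, with a log2 ratio of 0.14 (0.10 to 0.17) in male and -0.01 (-0.05 to 0.04) in female cells, and this difference between sexes was not tested. Tyrobp in interferon-like cells was higher in LEM, at 3899 against 3330 CPM (0.23), with 0.15 in female and 0.17 in male cells. Female cells, higher in Tyrobp (3884 against 3065 CPM in VEH), were 77 of the sexed interferon-like cells beside 183 male cells in VEH and 224 beside 213 in LEM, and the mean of both sexes' ratios was 0.16. Inpp5d in DAM-like cells was at 625 against 578 CPM (0.11), with 0.08 in female and 0.15 in male cells.

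Of the 55 pathway genes among these 7526, 11 were above 0.1 and 7 below -0.1, beside 14.1% and 9.86% of all detected genes, with a median of 0.00 against 0.01 over all detected genes. By the naming rule, Apoe (0.59, 0.49 in female and 0.70 in male cells), Cd300lf, an inhibitory lipid receptor (0.59, 0.73 and 0.43), and Pilra, an inhibitory receptor (0.27, 0.37 and 0.17), were higher in LEM in both sexes. Pik3r1, the regulatory subunit p85α of phosphoinositide 3-kinase, was lower (-0.37, -0.34 and -0.39).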

How the data were processed

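Live microglia of PSAPP mice were pooled by treatment and sequenced as 5′ libraries on the 10x Chromium platform. The authors counted reads with Cell Ranger 8.0.0 on mm10, name SoupX for free RNA, and dropped cells with few genes, high totals or a high mitochondrial share; the deposited table holds whole-number counts per gene and cell, from 501 genes and up to 19999 counts a cell. Whether these counts include the SoupX correction or intronic reads is not given in the sources used here, and cell names are renumbered, so barcodes shared between libraries could not be counted. There were 0 cell columns that matched no library.

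From these counts, cells were gated on raw marker counts, exclusively and in the order choroid plexus-like (at least 4 of 10 markers), BAM-like (3 of 7), mitotic-like (3 of 9), interferon-like (4 of 8), DAM-like (3), intermediate (1 or 2) and homeostatic-like. Counts were summed by library and gate. The 12 sums of 6 gates were fitted in edgeR 4.0.16 (R 4.3.3; quasi-likelihood test, TMM, filterByExpr, Benjamini-Hochberg over 12747 genes) with library and state as terms; the library term is the only pairing, since both states of a pair come from the same pooled mice. No test of LEM against VEH was possible, and exact Poisson and Clopper-Pearson intervals at 95% cover counting error only. The text names the 6 members and the 3 genes most correlated with each over the 12 sums. The naming rule for pathway genes covers those detected in at least 10% of cells. It asks for an absolute log2 fold change of at least 1 in DAM-like cells past the threshold. Otherwise it asks for a LEM over VEH log2 ratio of at least 0.25 in size with 1 sign in both sexes. Siglech and Plcg1 fall outside this rule. With 200 genes changed by a log2 of 1 in simulated sums of DAM-like against homeostatic-like cells, 76.5% were called with the right sign. Of the unchanged genes, 0.0638% were called. That simulation left all other genes of the 12747 unchanged, while in the data 23.7% passed as higher and 23.6% as lower. Its rates therefore cannot be carried over to the calls in the data.

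Alternatives were other scalings, DESeq2 1.42.0, other gates, each sex, 1 library at a time and cells without likely doublets. Scrublet (scanpy 1.11.5) by its automatic threshold called 0 VEH and 3113 LEM cells, so, departing from the plan, the highest scores (1807 VEH and 2402 LEM cells) were left out in that alternative and all cells kept otherwise. Positions are from GENCODE M21, promoters from RefSeq on GRCm38.p6 (5 of 6 genes had an entry and 3 are printed). Scripts ran on Python 3.11.15 with pandas 2.3.3, scipy 1.17.1 and numpy 2.4.6, and figures were drawn in matplotlib 3.10.9. The members, lists and alternatives were chosen with earlier results of these data known.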

Additional observations from a re-analysis of the deposited data

Results flagged for a closer look

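In a pair of results, the LEM over VEH ratio had opposite signs in female and male cells with neither counting interval reaching 0. Other ratios of opposite sign, where 1 or both intervals hold 0, are not listed. Over whole libraries, the log2 ratio of Trem2 in LEM over VEH was 0.033 (counting interval 0.020 to 0.045) in female cells (2302 CPM in VEH, 2355 CPM in LEM) and -0.014 (-0.024 to -0.0036) in male cells (2378 and 2355 CPM). In intermediate cells, that of Tyrobp was 0.063 (0.039 to 0.086) in female cells (3423 and 3575 CPM) and -0.15 (-0.17 to -0.12) in male cells (3252 and 2939 CPM). The DAM markers of intermediate cells differed between the libraries, with Cst7 at 169 (VEH) and 107 CPM (LEM) and Itgax at 78.4 and 98.0 CPM. The part of that difference in the ratios was not tested. The difference between the sexes was not tested, since each library holds 1 pool of each sex.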

How the results depend on the processing

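DAM-like against homeostatic-like cells kept direction and call for the 6 genes in edgeR and DESeq2, with gates on thinned counts, with DAM-like cells from 2 or 4 markers, with every gene that had a count, by sex, without likely doublets, with only these states in the fit, and in cells of 8000 to 14000 counts, which was chosen after the depths were seen, as was the per-cell scale below. The pairing by library (replicate block) changed no call of this comparison: without the block the values were 1.19 for Trem2, 1.84 for Tyrobp, 1.81 for Hcst, -0.55 for Syk, -0.39 for Plcg2 and -0.35 for Inpp5d. In the other states, leaving out the block ended the 4 intermediate calls, Inpp5d in interferon-like and Plcg2 in mitotic-like cells, and changed no other call of the 6 genes. Single libraries gave 1.18 to 1.20, 1.82 to 1.86, 1.73 to 1.91, -0.57 to -0.54, -0.40 to -0.38 and -0.39 to -0.32, with no test. As mean counts per cell without scaling, Syk (0.091), Plcg2 (0.25) and Inpp5d (0.29) reversed, by construction of the scale, since DAM-like cells held more counts. Over all genes, 3006 passed as lower, against 1727 with gates on thinned counts and 1845 in cells of 8000 to 14000 counts. Of the pathway list, 19 passed as higher, against 12 when genes in under 10% of cells were left out. The causes of these 3 differences in number were not tested.

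For LEM over VEH in whole libraries, Hcst kept its direction in all alternatives run, from -0.26 to -0.36. Scaling by TMM gave 0.0044 for Trem2 and 0.042 for Tyrobp, totals without the 20 most abundant genes 0.0028 and 0.040, and the mean over cells of counts per 10000 0.030 and 0.077. Female cells gave 0.033 for Trem2, 0.080 for Tyrobp, -0.0073 for Plcg2 and 0.014 for Inpp5d, male cells -0.014, -0.0015, 0.14 and 0.044, and the mean of the sexes 0.039 for Tyrobp. Without BAM-like, choroid plexus-like and ungated cells, Inpp5d was at 0.039. Within gates, a reversal is a change of sign of a log2 ratio of at least 0.1 in size; smaller ratios, such as those of Trem2, Tyrobp, Syk and Plcg2 in DAM-like cells, also changed sign in 1 sex and are not listed. Male cells reversed Hcst in DAM-like cells (0.0065) and Syk in BAM-like cells (0.30), and female cells Hcst in BAM-like cells (-0.68). Gates on thinned counts reversed Hcst in mitotic-like (0.17) and BAM-like cells (-0.78), Syk in interferon-like (-0.014) and BAM-like cells (0.26) and Inpp5d in BAM-like cells (-0.28). The cause was not tested.

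The share of cells with a count depends on depth. At a minimum of 2 counts it was 93.8% (VEH) and 94.99% (LEM) for Trem2, 92.4% and 94.3% for Tyrobp, 1.91% and 1.43% for Hcst, 17.0% and 18.2% for Syk, 32.5% and 36.6% for Plcg2, and 85.9% and 88.3% for Inpp5d. Thinned to 2000 counts, it was 95.1% and 95.5%, 94.5% and 95.5%, 3.62% and 3.01%, 20.3% and 20.5%, 31.8% and 33.9%, and 79.0% and 79.7%. Thinning left out 1305 VEH and 1215 LEM cells below that depth.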
